A study of Mus musculus with 18 samples.

Results

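The 38 genes described here encode the proteins that let calcium into a cell, release it from internal stores and pump it out again. They were chosen by name, as the rows of the count tables that carry the symbols of 16 voltage-gated calcium channel subunits, 3 ryanodine receptors, 3 inositol trisphosphate (IP3) receptors, 2 store sensors, 6 calcium pumps, 5 TRPC channels and 3 sodium-calcium exchangers, and they are 38 of the 55335 genes counted. Transcripts were counted in single nuclei by combinatorial barcoding of forebrain tissue from mice at embryonic day 14. The 18 libraries hold 9 animals, with 2 libraries each, titled run 1 and run 2. The titles do not say what a run is. The animals belong to the MYT1L S710fsX line, which carries a frameshift in Myt1l, a transcription factor gene of newly born neurons. There were 3 wild type (WT), 3 heterozygous (Het) and 3 homozygous mutant (KO) animals, all untreated, of the same age and taken as forebrain. Every cell of a mutant animal carried the allele. The titles of the libraries give these genotypes. The genotype field gives the same in run 2 but reads WT for the 6 Het and KO libraries of run 1, so the genotype of those libraries rests on their titles. Values from run 2 alone are given for members of the 38 called without a block in a class or subtype. Calls in single clusters, and calls of genes outside the 38, are given without a value from run 2 alone. The labels name no further transgene and do not give the sex of the embryos.

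A voltage-gated calcium channel is built around a pore subunit, named by the current it carries, together with an alpha2delta subunit outside the membrane and a beta subunit inside it that bring the channel to the surface and tune its opening. Ryanodine and IP3 receptors release calcium from the endoplasmic reticulum, Stim proteins sense when that store is empty, SERCA pumps refill it, and plasma membrane pumps and sodium-calcium exchangers export calcium from the cell. In the embryonic forebrain, calcium transients pass through radial glia, the dividing stem cells, as well as through migrating and differentiating neurons, before most synapses have formed.

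After limits on counts per nucleus and removal of likely doublets, 194178 nuclei remained, with a median of 2517 unique transcripts (unique molecular identifiers, UMIs). Nuclei were clustered without the 38 genes and named from marker genes, each name meaning "-like". They fell into 30262 radial glia, 11853 excitatory intermediate progenitors, 9742 inhibitory progenitors, 60884 excitatory neurons, 52745 inhibitory neurons and 2007 Cajal-Retzius neurons, an early population at the surface of the cortex. A further 25963 nuclei had no class name. The 722 nuclei with markers of diencephalic neurons all came from Het replicate 1 and entered no test. Whether the dissections had the same extent in every animal was not tested. Counts were summed per animal, so that excitatory neurons held 14693061 to 25437469 UMIs per animal and Cajal-Retzius neurons 559371 to 1028786. Levels are CPM, the count of a gene scaled to 1000000 summed UMIs, and are compared only for the same gene between groups of nuclei, since transcript length was not corrected for. In excitatory neurons Myt1l itself was counted at 1891, 2134 and 2044 CPM in the WT animals, at 2145, 2341 and 2327 CPM in the Het animals and at 2477, 2704 and 2518 CPM in the KO animals. It passed the test as higher in KO in excitatory neurons (log2 change 0.37, edgeR adjusted p = 0.0344) and in deep-layer neurons (0.33, adjusted p = 0.0269), and in inhibitory neurons with the replicate block only (0.30, adjusted p = 0.388, 0.0156 with the block). Its log2 change was -0.20 in excitatory intermediate progenitors, -0.12 in inhibitory progenitors and -0.07 in radial glia, where it did not pass. A frameshift transcript can still be counted, so this value does not check the labels.

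Between KO and WT, 4 of the 38 genes passed the test in at least 1 class or subtype, and 13 did with the replicate number as a block. All 4 were in excitatory or deep-layer neurons, where 0.719% and 1.6% of all genes passed, and 5.91% and 5.58% with the block. Cacna2d3, an alpha2delta subunit, was higher in excitatory neurons and in their deep-layer subtype. Trpc1, a cation channel subunit, was lower in both. In deep-layer neurons Trpc7, a receptor-activated channel of the same family, was higher and the alpha2delta gene Cacna2d2 was lower. For these genes, as the members that passed, the 250 bases before the RefSeq start were examined (GRCm38.p6), and the windows of the pair called in both groups are printed. Capitals mark CG pairs, which are dense at the promoters of many broadly used genes. Cacna2d3 had its window at chr14:29721865-29722114 on the minus strand, Cacna2d2 at chr9:107399630-107399879 on the plus strand, Trpc1 at chr9:95750349-95750598 on the minus strand and Trpc7 at chr13:56895790-56896039 on the minus strand. GENCODE starts Cacna2d2, Trpc7 and Trpc1 further upstream than RefSeq does. The window of Cacna2d2 and most of that of Trpc7 lie in the first exons it gives for them and are not printed, and the 3′ end of the Trpc1 window lies inside its gene.
Cacna2d3: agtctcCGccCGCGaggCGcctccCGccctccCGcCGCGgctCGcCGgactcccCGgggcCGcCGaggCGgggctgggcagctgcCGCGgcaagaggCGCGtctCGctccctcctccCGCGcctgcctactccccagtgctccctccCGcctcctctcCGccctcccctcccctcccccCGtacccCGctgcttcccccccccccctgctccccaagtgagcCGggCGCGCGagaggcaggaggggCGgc
Trpc1: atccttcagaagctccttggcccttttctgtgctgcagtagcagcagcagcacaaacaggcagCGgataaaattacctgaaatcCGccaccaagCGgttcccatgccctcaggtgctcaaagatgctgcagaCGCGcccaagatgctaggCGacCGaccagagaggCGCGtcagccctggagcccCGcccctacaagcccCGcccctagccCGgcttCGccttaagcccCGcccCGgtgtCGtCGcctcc

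The windows of Cacna2d2, Cacna2d3 and Trpc1 held 34, 30 and 17 CG pairs, against a median of 6 over 32851 promoters of the same length, and the window of Trpc7 held 2. The letters AAGTT, the core of the motif bound by MYT1 family proteins, were searched on both strands (AAGTT or AACTT, with no overlap between the forms). None of the 4 windows contained them. Over all promoters 35.3% did, as did 8 of the 41 promoters listed for the 30 members that matched the table. A match or its absence describes these letters in these windows and says nothing of binding. On the annotation of the same build, Trpc1 (chr9:95705082-95750375) and Trpc7 (chr13:56773113-56895993) overlapped no other gene. Cacna2d3 (chr14:28904943-29721864) and Cacna2d2 (chr9:107399612-107529343) contain shorter genes on the opposite strand, so reads within them cannot be assigned with certainty where strand was not used. An overlap with a gene on the opposite strand was present for 26 of the 38 members.

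Across the classes of WT animals, the ratio of the highest to the lowest class mean, after adding 1 CPM to each, ran from 1.14 for Cacna2d4 to 130.3 for Cacna2d2. Of the 38 members, 32 reached 20 CPM in at least 1 class. The highest WT mean was in Cajal-Retzius neurons for 11 members, in excitatory neurons for 11, in inhibitory neurons for 8, in radial glia for 5, in inhibitory progenitors for 2, Cacna2d4 and Atp2a3, which did not exceed 1.19 CPM, and in excitatory intermediate progenitors for 1. For 9 members the WT animals of the highest class overlapped those of the next, among them Cacna1h, Cacnb3 and Ryr1. These are descriptions without a test, because the classes were drawn from the same nuclei.

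**Figure D1:**
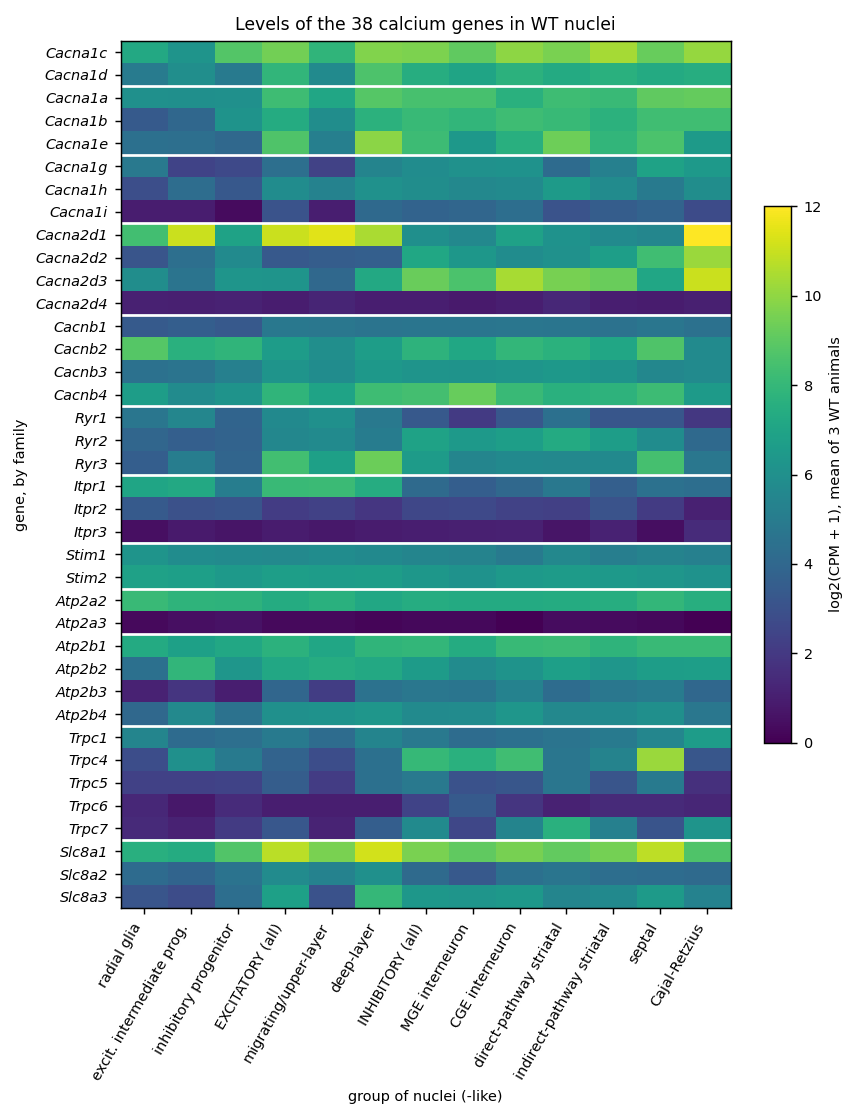
Mean level over the 3 WT animals of each of the 38 genes (rows, grouped by family) in 13 groups of nuclei (columns), as log2(CPM + 1) by color; capitals mark a whole neuron class and the columns after it its subtypes. Cacna2d1 is bright in the excitatory lineage and Cajal-Retzius neurons and dark in inhibitory neurons, and Cacna1i, Cacna2d4, Itpr2, Itpr3, Atp2a3 and Trpc6 stay under 20 CPM in every class.

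Among the pore subunits, the L-type gene Cacna1c, whose current links electrical activity to transcription, was counted at 1029, 1237 and 1064 CPM in Cajal-Retzius neurons of the WT animals and at 82.2, 60.1 and 76.1 CPM in excitatory intermediate progenitors. Among inhibitory subtypes it was highest in indirect-pathway striatal neurons, at 1322 ± 46.0 CPM (SD, n = 3 animals, as for all WT means here). The other L-type gene, Cacna1d, was lower in all progenitors, at 29.5 to 59.9 CPM, than in excitatory neurons, at 239 ± 6.88 CPM. The N-type gene Cacna1b, a channel of transmitter release, was at 335, 327 and 306 CPM in Cajal-Retzius neurons and at 12.4, 7.58 and 8.98 CPM in radial glia. Its level in inhibitory progenitors, 71.3 ± 7.22 CPM, lay between radial glia and inhibitory neurons, at 268 ± 11.7 CPM. The P/Q-type gene Cacna1a stood at 61.6 to 64.9 CPM in the 3 progenitor classes and at 309 ± 22.9 CPM in excitatory neurons. The R-type gene Cacna1e was at 438, 402 and 406 CPM in excitatory neurons and at 17, 12.1 and 18.1 CPM in inhibitory progenitors. Within excitatory neurons it differed by subtype, with 971 ± 10.6 CPM in deep-layer neurons and 35.2 ± 3.00 CPM in migrating and upper-layer neurons.

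The T-type pores carry a low-threshold current. Of these, Cacna1g was at 79.2, 99.7 and 84.0 CPM in Cajal-Retzius neurons and at 5.07, 4.12 and 3.91 CPM in excitatory intermediate progenitors, with 118 ± 15.4 CPM in septal neurons. Cacna1h lay between 48.2 and 92.7 CPM in the inhibitory subtypes other than septal neurons, where it was at 29.3 ± 4.27 CPM. Cacna1i did not exceed 13.3 CPM in any class. All 3 were at or below 27.6 CPM in every progenitor class.

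The alpha2delta genes Cacna2d1, Cacna2d2 and Cacna2d3 had the largest ratios between classes of the 38 members, and Cacna2d4 the smallest. Cacna2d2 was at 1201, 1189.9 and 1139 CPM in Cajal-Retzius neurons and at 10.6, 6.31 and 7.15 CPM in radial glia, the ratio of 130.3 given above. It was also low in excitatory neurons, at 9.11 ± 1.53 CPM, and higher in inhibitory neurons, at 139.6 ± 10.1 CPM, and in septal neurons, at 323 ± 18.6 CPM. Cacna2d3 was at 1985, 2273 and 2078 CPM in Cajal-Retzius neurons and at 25.4, 22.3 and 22.4 CPM in excitatory intermediate progenitors. In inhibitory neurons it stood at 611 ± 19.2 CPM, and it was highest there in caudal ganglionic eminence interneurons, at 1380 ± 125 CPM, a subtype of interneuron born in the ventral forebrain. Cacna2d1, a subunit bound by gabapentin, had a different order. It was at 3744, 4282 and 3938 CPM in Cajal-Retzius neurons, at 2123 ± 221 CPM in excitatory intermediate progenitors and at 2098 ± 17.8 CPM in excitatory neurons, but at 77.6, 51.5 and 57.4 CPM in inhibitory neurons. Cacna2d4 was at 1.19 ± 1.01 CPM in its highest class.

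**Figure D2:**
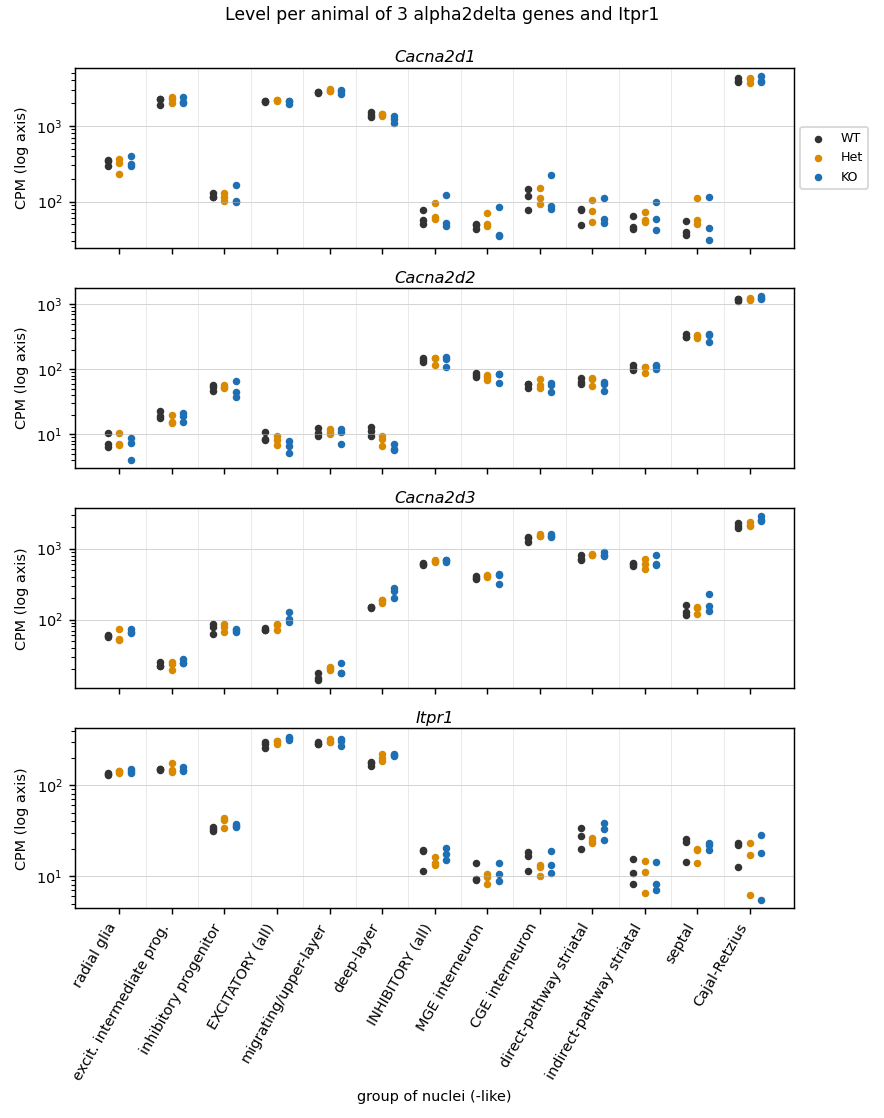
Level of Cacna2d1, Cacna2d2, Cacna2d3 and Itpr1 in each animal (points, colored by genotype) in 13 groups of nuclei, as CPM on a log axis. Cacna2d1 and Itpr1 are high along the excitatory lineage and low in inhibitory neurons, Cacna2d2 and Cacna2d3 show the opposite order, and in deep-layer neurons the KO points of Cacna2d3 lie above and those of Cacna2d2 below the WT points.

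Of the beta subunits, Cacnb2 was highest in radial glia, at 455 ± 12.7 CPM, against 97.0 ± 9.75 CPM in excitatory neurons. Cacnb4 had the reverse order, with 99.96 ± 2.82 CPM in radial glia, 227 ± 6.96 CPM in excitatory neurons and 598 ± 18 CPM in medial ganglionic eminence interneurons. Cacnb1 and Cacnb3 were both lower in progenitors, at 9.05 to 36.7 CPM, than in excitatory neurons, at 26.7 ± 4.14 and 74.2 ± 13.1 CPM.

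The store channels also split by lineage. Itpr1, the main neuronal IP3 receptor, was at 255, 296 and 286 CPM in excitatory neurons and at 19.0, 11.5 and 19.7 CPM in inhibitory neurons. Radial glia, at 133 ± 3.52 CPM, and excitatory intermediate progenitors, at 150.9 ± 1.90 CPM, were between them. Ryr3 was at 311, 337 and 333 CPM in excitatory neurons and at 11.3, 9.17 and 12.1 CPM in radial glia, and it reached 641 ± 56.4 CPM in deep-layer neurons. Ryr2 was higher in inhibitory neurons, at 120.7 ± 14.1 CPM, than in excitatory neurons, at 46.7 ± 3.49 CPM, and Ryr1 had the opposite order, at 9.08 ± 1.32 and 50.3 ± 2.30 CPM. Itpr2 and Itpr3 stayed at or below 9.62 CPM in the named classes. In an unnamed cluster of 688 nuclei led by microglial and vascular markers, Itpr2 was at 358 ± 36.6 CPM and Atp2a3 at 22.1 ± 8.61 CPM.

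The store sensors and refilling pumps varied little between classes. Stim1 and Stim2 ranged from 36.1 to 72.2 CPM and from 67.8 to 116 CPM, and the SERCA pump gene Atp2a2 from 167 to 279 CPM, all 3 highest in radial glia. The plasma membrane pump Atp2b1 ranged from 111 to 278 CPM. Atp2b2, another plasma membrane pump, was at 20.9 ± 8.94 CPM in radial glia and at 238 ± 8.09 CPM in excitatory intermediate progenitors, its highest class. Atp2b3 was near its counting limit in progenitors, at 0.992 to 2.57 CPM, and at 26.4 ± 3.27 CPM in inhibitory neurons, while Atp2b4 lay between 15.6 and 64.9 CPM. The exchanger Slc8a1 was highest in excitatory neurons, at 1734 ± 81.7 CPM, and within them in the deep-layer subtype, at 2324 ± 124 CPM. Slc8a2 stood at 54.1 ± 1.59 CPM in excitatory neurons and at 13.4 to 22.8 CPM in the other 5 classes. Slc8a3 was at 128, 109 and 105 CPM in excitatory neurons and at 4.73, 5.24 and 7.44 CPM in excitatory intermediate progenitors.

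TRPC channels are cation channels opened downstream of receptors that act through phospholipase C. Trpc4 was at 258, 266 and 265 CPM in inhibitory neurons and at 6.43, 4.27 and 7.75 CPM in radial glia, and septal neurons held 1188 ± 143 CPM. Trpc7 was at 64.2, 66.0 and 85.8 CPM in Cajal-Retzius neurons and at 1.03, 1.58 and 1.14 CPM in excitatory intermediate progenitors, with 194 ± 15.1 CPM in direct-pathway striatal neurons. Trpc1 was highest in Cajal-Retzius neurons, at 97.9 ± 20.5 CPM, and between 17.4 and 42.8 CPM in the other classes. Trpc5 reached 27.6 ± 3.12 CPM in inhibitory neurons, and Trpc6 did not exceed 4.35 CPM in any class.

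To ask which of these genes depend on MYT1L, KO animals were compared with WT animals within each class by edgeR's quasi-likelihood test on the summed counts of all genes. A gene was called at an adjusted p (Benjamini-Hochberg, over all genes tested in that group) under 0.05 with a log2 change beyond 0.2. The labels do not say what a replicate number shares. Deviations of same-numbered KO and WT animals from their group means correlated at 0.114 to 0.303 in excitatory and inhibitory neurons. The call with the replicate number as a block is therefore given where it differs. In excitatory neurons 37 of the 38 members had enough counts to be tested (all but Atp2a3) and 2 were called, 1 higher and 1 lower, against 0.719% of all genes tested. With the block 10 of the 37 were called (27.0%), 3 higher and 7 lower, against 5.91% of all genes. At an unadjusted p under 0.05 there were 13 members (35.1%), against 12% of all genes. Members with all 3 KO animals above or all 3 below the WT animals numbered 12 of 37 (32.4%), against 16.6% of all genes, 3 above and 9 below. The median log2 change over the members was -0.043 and over all genes tested -0.0058.

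Cacna2d3 was the member with the smallest adjusted p in excitatory neurons. It was counted at 76.9, 71.6 and 70.6 CPM in the WT animals, at 86.5, 71.5 and 84.8 CPM in the Het animals and at 126, 101 and 92.3 CPM in the KO animals. All KO animals lay above all WT animals, and the Het animals overlapped the WT range. The log2 change in KO was 0.56 (SE 0.105, edgeR adjusted p = 0.0311). Trpc1, which forms mixed channels with the other TRPC subunits, was counted at 30.5, 28.3 and 28.3 CPM in WT, at 23.9, 22.7 and 25.4 CPM in Het and at 21.9, 21.9 and 22.5 CPM in KO. Over both runs, every Het and KO animal lay below every WT animal. In run 1 the Het animals, at 23.4, 18.8 and 27.2 CPM, overlapped the WT animals, at 24.4, 26.7 and 20.4 CPM. The log2 change in KO was -0.37 (SE 0.070, edgeR adjusted p = 0.0327).

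Both calls in excitatory neurons were close to the threshold. They ended when any WT animal, KO replicate 1 or KO replicate 2 was left out, when the Het animals were not used for the estimate of spread (adjusted p 0.0546 for Cacna2d3 and 0.0662 for Trpc1) and in run 1 alone, which held 37928 of the nuclei. Without WT replicate 1, 2 or 3 the adjusted p was 0.0900, 0.10 and 0.133 for Cacna2d3 and 0.120, 0.0946 and 0.0989 for Trpc1, and without KO replicate 1 or 2 it was 0.0705 and 0.108 for Cacna2d3 and 0.0945 and 0.115 for Trpc1. Cacna2d3 was also lost without Het replicate 3 (0.0505), and Trpc1 without KO replicate 3 (0.0549) and in run 2 alone (0.0505). In run 1 alone the log2 change was 0.37 for Cacna2d3 and -0.36 for Trpc1, and in run 2 alone 0.64 (adjusted p = 0.0138) and -0.35. In run 2 alone 3 members were called, namely Cacna2d3, Ryr2 and Trpc7. The share of all genes called in that fit is not given here, so these 3 cannot be read against it. The direction was the same in each of these fits, and with the block the adjusted p was 0.000102 for Cacna2d3 and 0.00187 for Trpc1, the range over all alternatives being 1.1e-08 to 0.883 and 0.00187 to 0.835. The 1.1e-08 is from the fit with no filter on low counts. That fit gave a small p for its ratio of change to SE (log2 change 0.55, SE 0.081, edgeR unadjusted p = 1.4e-11). The reported fit gave 0.56, SE 0.105 and an edgeR unadjusted p of 0.00013. Calls made only with no filter carry this limit.

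**Figure D3:**
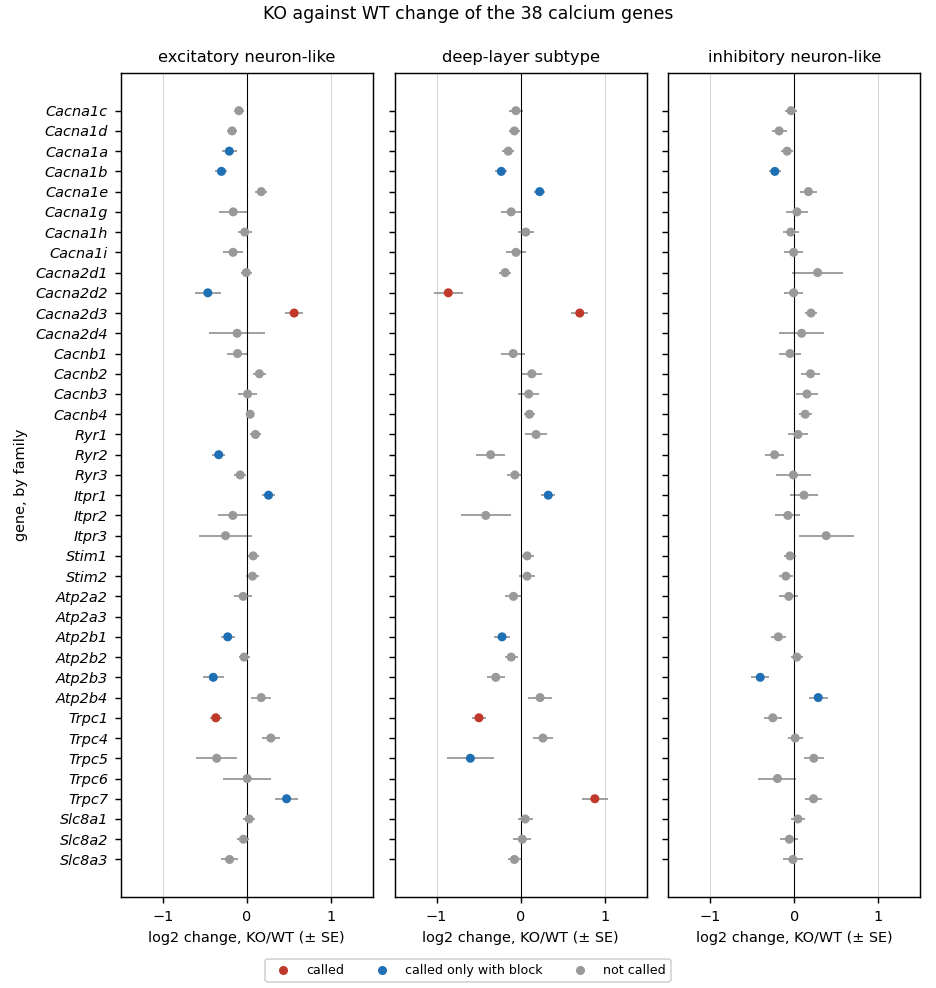
Log2 change between KO and WT (points) with its standard error (bars) for each of the 38 genes, by family, in excitatory neurons, their deep-layer subtype and inhibitory neurons; colors mark genes called by edgeR, called with the replicate block but not without it, or not called. Cacna2d3 and Trpc7 lie furthest to the right and Cacna2d2 furthest to the left in deep-layer neurons, and in inhibitory neurons all changes stay within 0.41 on either side of 0.

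The 4 uncalled members with the lowest p in excitatory neurons were Cacna1b, Ryr2, Trpc7 and Itpr1, and all 4 were called with the block. Cacna1b was at 180.0, 161 and 158 CPM in WT, at 159.8, 146 and 152 CPM in Het and at 142, 118 and 139 CPM in KO (log2 change -0.30, SE 0.071, adjusted p = 0.0801, 0.00131 with the block and 0.00131 to 0.821 over all alternatives). Ryr2, a release channel of the endoplasmic reticulum, was at 50.4, 43.5 and 46.2 CPM in WT, at 45.9, 44.8 and 49.8 CPM in Het and at 38.4, 31.9 and 39.0 CPM in KO (log2 change -0.33, SE 0.080, adjusted p = 0.0838, 0.00230 with the block and 0.00230 to 0.883 over all alternatives). In both genes all KO animals lay below all WT animals.

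Trpc7 was at 9.40, 7.12 and 8.78 CPM in WT, at 9.0, 8.13 and 8.63 CPM in Het and at 10.3, 9.75 and 14.1 CPM in KO (log2 change 0.47, SE 0.135, adjusted p = 0.146, 0.0121 with the block and 0.0121 to 0.932 over all alternatives). Itpr1 was at 255, 296 and 286 CPM in WT, at 288, 307 and 311 CPM in Het and at 328, 343 and 314 CPM in KO (log2 change 0.26, SE 0.075, adjusted p = 0.148, 0.00448 with the block and 0.00448 to 0.794 over all alternatives). In both genes every KO animal was above every WT animal. DESeq2 called 4 members in excitatory neurons, namely Cacna2d3, Trpc1, Cacna1b and Ryr2, against 303 of 42200 genes (0.718%). DESeq2 shares, here and below, include low-count genes that the edgeR filter left out. EdgeR called 139 of 19324 genes here, so the shares of DESeq2 and edgeR are not on the same base. The other members called with the block and not in the reported fit were Cacna2d2 (log2 change -0.46), the pumps Atp2b3 (-0.40) and Atp2b1 (-0.23), and Cacna1a (-0.21). With no filter on low counts Cacna2d2 and Atp2b3 were called too. Without KO replicate 2 the change of Cacna1a was -0.098, without KO replicate 3 that of Trpc7 was 0.30, and in run 1 alone that of Atp2b3 was -0.16.

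By family in excitatory neurons, the lower calls with the block took in the P/Q- and N-type pores, Cacna2d2, Ryr2, 2 of 4 plasma membrane pumps and Trpc1, and the higher calls Cacna2d3, Itpr1 and Trpc7. No T-type pore, beta subunit, Stim gene, SERCA pump or exchanger was called with or without the block. Of the L-type pores, Cacna1d had a log2 change of -0.17 (adjusted p = 0.198), which is within the limit of 0.2 on size, and Cacna1c of -0.09. Of the markers of other cell types, the inhibitory progenitor list, 8 genes with none at 0, was lower in excitatory neurons of KO animals, at a summed 29.0 to 34.3 CPM against 35.2 to 39.2 CPM in WT animals. The other 10 lists overlapped between KO and WT animals. Between Het and WT animals only the diencephalic list stood apart, at a summed 279 to 306 CPM in Het and 245 to 264 CPM in WT. That list shares Slc17a6 with the excitatory neuron list, so its sum here includes a marker of excitatory neurons themselves. The part of these differences in the results was not tested. In these summed counts a smaller share of nuclei that express a gene and less RNA per nucleus cannot be told apart.

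The deep-layer subtype, 17418 excitatory nuclei in 2 clusters that carried Fezf2 and Bcl11b, had 4 calls among 34 members tested, 2 higher and 2 lower, against 1.6% of all genes. With the block there were 9 (26.5%), against 5.58%, and at an unadjusted p under 0.05 there were 12 (35.3%), against 12.8%. In 11 members (32.4%) the KO animals did not overlap the WT animals, against 18% of all genes. Cacna2d3 was at 151, 152 and 147 CPM in WT, at 186, 172 and 187 CPM in Het and at 275, 249 and 199.8 CPM in KO. The 3 genotypes did not overlap, with Het between WT and KO. Its log2 change in KO was 0.70 (SE 0.101, edgeR adjusted p = 0.00302), and the call held without any 1 animal, at adjusted p from 0.000157 to 0.0208.

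Trpc7 in deep-layer neurons was at 9.23, 12.2 and 11.9 CPM in WT, at 10.2, 13.2 and 13.9 CPM in Het and at 17.8, 22.4 and 20.5 CPM in KO. The KO animals stood apart from both other genotypes, which overlapped. The log2 change was 0.88 (SE 0.155, edgeR adjusted p = 0.0108), and it rested on 58 to 166 UMIs per animal. Trpc1 was at 43.8, 42.3 and 38.9 CPM in WT, at 36.5, 32.8 and 35.4 CPM in Het and at 28.7, 30.1 and 28.8 CPM in KO, again with no overlap and with Het between WT and KO (log2 change -0.50, SE 0.088, edgeR adjusted p = 0.0114). In run 1 its Het animals, at 34.0, 31.0 and 44.3 CPM, overlapped its WT animals, at 33.0, 36.7 and 18.8 CPM. Cacna2d2 was at 13.0, 11.4 and 9.57 CPM in WT, at 8.62, 6.63 and 9.46 CPM in Het and at 6.99, 5.69 and 5.90 CPM in KO. All Het and KO animals lay below all WT animals, and the Het animals overlapped the KO animals (log2 change -0.86, SE 0.176, edgeR adjusted p = 0.0255, 32 to 98 UMIs per animal).

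Leaving out an animal ended 3 of these 4 calls. Trpc7 was lost without KO replicate 2 (adjusted p 0.0613), Trpc1 without WT replicate 2 (0.0580), and Cacna2d2 without KO replicate 2 (0.10), KO replicate 3 (0.0892), WT replicate 1 (0.0893) or WT replicate 2 (0.0908). Over all alternatives the adjusted p ran from 3.9e-06 to 0.953 for Trpc7, from 0.000964 to 0.951 for Trpc1 and from 0.000492 to 0.10 for Cacna2d2. Leiden resolution 2 was not among these alternatives, since it was fitted for classes and not for subtypes. The Cacna2d2 call also ended with no upper limits on UMIs and genes (log2 change -0.75, adjusted p = 0.0788). The highest values for Trpc7 and Trpc1 were those of run 1 alone, in which no deep-layer member was called and Cacna2d2 was not tested. The log2 change there was 0.33 for Trpc7, -0.24 for Trpc1 and 0.45 for Cacna2d3, and the KO and WT animals of each overlapped. In run 2 alone, where genotype field and titles agree, all 4 were called, at 1.00 for Trpc7 (adjusted p = 0.00858), -0.52 for Trpc1 (0.0144), 0.74 for Cacna2d3 (0.00253) and -0.91 for Cacna2d2 (0.0309). In run 1, Cacna2d3 was at 143, 130.3 and 197 CPM in WT and at 286, 168 and 181 CPM in KO, which overlapped. Its Het animals in run 1, at 208, 121 and 189 CPM, overlapped both. In run 2 it was at 154, 155 and 139 CPM in WT and at 272, 262 and 204 CPM in KO, which did not.

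**Figure D4:**
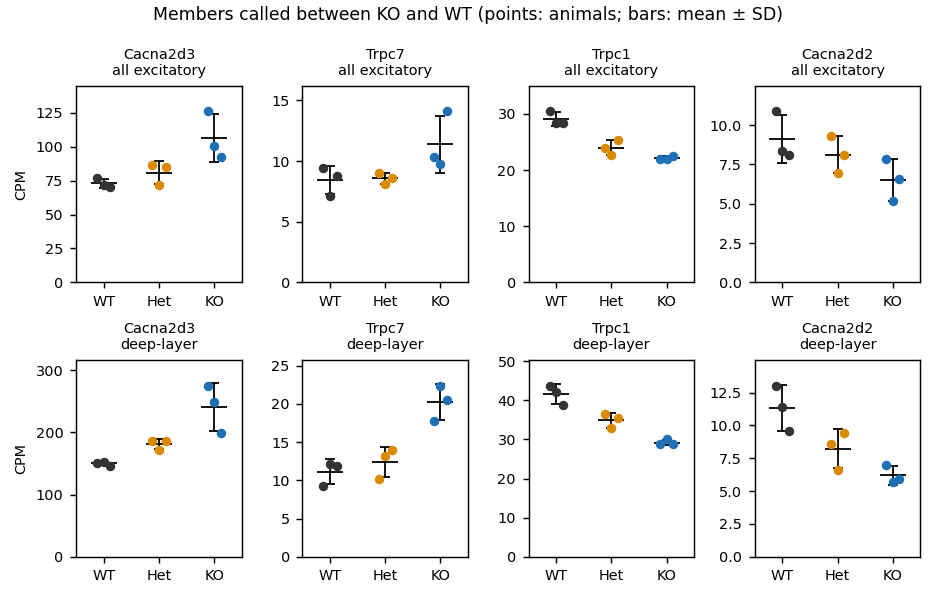
Level in each animal (points, CPM) with the mean and SD of the 3 animals (bars) of the 4 genes called between KO and WT, in all excitatory neurons (top) and in the deep-layer subtype (bottom). In deep-layer neurons the KO animals lie apart from the WT animals for all 4 genes, and the Het means lie between the other means.

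Called with the block and not in the reported fit in deep-layer neurons were Itpr1, Trpc5, Cacna1e, Cacna1b and Atp2b1. Itpr1 was at 164, 174 and 182 CPM in WT and at 219, 215 and 211 CPM in KO (log2 change 0.33, adjusted p = 0.0594). DESeq2 called Itpr1 beside the 4 members above, against 221 of 36709 genes (0.602%), where edgeR called 233 of 14590. It was also called with no filter on low counts (0.0232) and without Het replicate 1 (0.0415). Cacna1e was at 961, 982 and 969 CPM in WT and at 1084, 1167 and 1107 CPM in KO, with the KO animals above the WT animals (log2 change 0.23, adjusted p = 0.115). Trpc5, a gene on chromosome X, was at 27.0, 15.1 and 19.5 CPM in WT and at 19.6, 6.95 and 13.7 CPM in KO, which overlapped (log2 change -0.60, adjusted p = 0.384, and 0.00375 with no filter on low counts). Its log2 change was -0.32 without KO replicate 2, -0.37 without WT replicate 1 and -0.90 without KO replicate 1. Cacna1b (-0.23) and Atp2b1 (-0.22) were lower, as in all excitatory neurons. No list of markers of another cell type set KO apart from WT in deep-layer neurons. The Cajal-Retzius list, whose cells have far more Cacna2d2, summed to 276 to 329 CPM in WT and 195 to 340 CPM in KO. The inhibitory neuron list, whose cells have more Trpc7 and Cacna2d3, summed to 90.2 to 187 CPM in WT and 111 to 376 CPM in KO. In WT Cajal-Retzius neurons the Cajal-Retzius list summed to 22427 to 26167 CPM, and Cacna2d2 averaged 1176 CPM. The part of nuclei or RNA of these other cells in the deep-layer levels was not tested. Deep-layer nuclei were 27.9% to 31.7% of the excitatory nuclei in WT animals and 26.0% to 29.7% in KO animals.

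The 2 deep-layer clusters were also each fitted on their own, a fit chosen after seeing the data. In all, 25 clusters were fitted, with no alternative and no run alone, and with p adjusted within each cluster only. Of these, 4 held a member called between KO and WT, with 10 member calls together. In the larger, of 13194 nuclei, 6 members were called, against 2.29% of all genes. These were Cacna2d3 (log2 change 0.82), Trpc7 (0.92), Cacna1e (0.26), Trpc1 (-0.58), Cacna2d2 (-0.85) and Cacna2d1 (-0.34). Cacna2d3 was there at 156, 158 and 156 CPM in WT and at 327, 274 and 217 CPM in KO. In the smaller, of 4224 nuclei, edgeR called 0 of 29 members and 0% of all genes, and 1 member had an unadjusted p under 0.05. That was Itpr1, with a log2 change of 0.33 (adjusted p = 0.924), against 0.31 in the larger cluster (adjusted p = 0.140). Cacna2d3 was there at 132, 128 and 109 CPM in WT and at 134, 139 and 128 CPM in KO, Trpc1 was at 22.7, 32.4 and 20.3 CPM and at 24.9, 33.3 and 21.4 CPM, and Trpc7 was at 1.66 ± 1.60 and 2.48 ± 1.55 CPM. The difference between the clusters was not tested.

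Among the remaining excitatory clusters, 1 cluster of 14562 nuclei had lower Ryr2, at 65.7, 52.2 and 58.9 CPM in WT and at 43.1, 30 and 44.2 CPM in KO (log2 change -0.56, edgeR adjusted p = 0.0289), and higher Cacna1e (0.37), against 1.5% of all genes called. A cluster of 11170 nuclei led by Tfap2d had lower Cacna1b, at 204, 202 and 199 CPM in WT and at 153, 144 and 156 CPM in KO (log2 change -0.38, edgeR adjusted p = 0.0279), against 0.739% of all genes. In the migrating and upper-layer subtype of 17734 nuclei, 0 of 33 members were called by edgeR, by DESeq2 or with the block, against 0%, 0% and 0.11% of all genes. An unadjusted p under 0.05 was seen in 2 of them (6.06%), against 4.9% of all genes. Cacna2d3 was there at 15.6 ± 1.79 CPM in WT and changed by 0.36 on the log2 scale without passing (SE 0.151, adjusted p = 0.952).

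In inhibitory neurons, edgeR called 0 of 37 members, against 0.0428% of all genes, and DESeq2 called 0, against 0.0865%. At an unadjusted p under 0.05 there were 6 members (16.2%), against 5.97% of all genes. In 6 (16.2%) the KO animals did not overlap the WT animals, against 10.9%. With the block 3 were called (8.11%), against 0.813%. The pump gene Atp2b3, on chromosome X, was at 29.9, 23.4 and 26.0 CPM in WT, at 23.0, 23.4 and 23.0 CPM in Het and at 21.7, 16.2 and 20.9 CPM in KO (log2 change -0.41, SE 0.110, adjusted p = 0.495, 0.0428 with the block). Cacna1b was at 281, 257 and 267 CPM in WT, at 256, 242 and 248 CPM in Het and at 243, 201 and 227 CPM in KO (-0.23, SE 0.070, adjusted p = 0.626, 0.0498 with the block). All KO animals lay below all WT animals for both.

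Atp2b4, another plasma membrane pump, was at 50, 54.4 and 55.1 CPM in WT, at 53.4, 61.4 and 61.5 CPM in Het and at 51.2, 66.0 and 72.1 CPM in KO, which overlapped WT (0.28, SE 0.111, adjusted p = 0.788, 0.0479 with the block). Cacna2d3 was at 589, 616 and 627 CPM in WT, at 649, 667 and 693 CPM in Het and at 698, 699.9 and 655 CPM in KO, all KO animals above all WT animals, and was called neither without nor with the block (log2 change 0.20, SE 0.069, adjusted p = 0.727). For these 4 genes the adjusted p over all alternatives reached 1.00, and its lowest value was that with the block. The radial glia marker list, 9 genes, was lower in KO, at a summed 167 to 176 CPM against 178 to 190.4 CPM in WT, and its part in these values was not tested.

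Among the inhibitory subtypes, edgeR and DESeq2 called 0 members in medial or caudal ganglionic eminence interneurons, striatal neurons of the direct or indirect pathway, or septal neurons. Over these 5 subtypes there were 169 member tests, and edgeR called 0.00657% and DESeq2 0.0115% of all gene tests. An unadjusted p under 0.05 was seen in 27 of the 169, against 5.56% of all gene tests, and 1 was called with the block, against 0.105%. That member was Ryr2 in caudal ganglionic eminence interneurons, where edgeR called 0.0183% of all genes, and 0.146% with the block. It was at 118, 91.4 and 106 CPM in WT, at 109, 79.1 and 91.3 CPM in Het and at 91.0, 46.6 and 56.0 CPM in KO (log2 change -0.75, SE 0.180, adjusted p = 0.298, 0.00794 with the block and 0.000193 to 1.00 over all alternatives). All KO animals lay below all WT animals, on 86 to 171 UMIs per animal. In that subtype 10 of 33 members (30.3%) had an unadjusted p under 0.05, against 6.6% of all genes. In 9 (27.3%) the KO animals did not overlap the WT animals, against 12.1%. Among the 25 clusters fitted on their own, 1 group of 2690 inhibitory nuclei without a subtype name had lower Cacna1d. It was at 262, 241 and 242 CPM in WT and at 143, 185 and 179.9 CPM in KO (log2 change -0.53, edgeR adjusted p = 0.0398), against 0.335% of all genes.

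**Figure D5:**
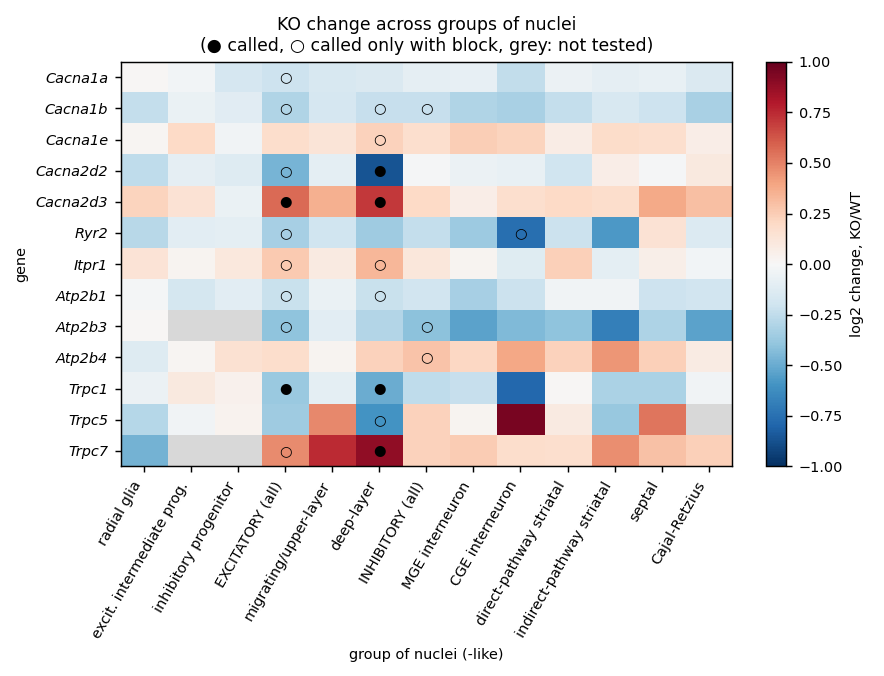
Log2 change between KO and WT (color) of the 13 genes called in any class or subtype by edgeR with or without the replicate block, in 13 groups of nuclei; filled circles mark calls, open circles calls made with the block but not without it, and grey groups not tested. Changes run from -0.86 to 0.95, and filled circles are present in the excitatory class and its deep-layer subtype only.

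In Cajal-Retzius neurons 0 of 29 members were called by edgeR, against 0.298% of all genes, 0 by DESeq2, against 0.127%, and 0 with the block, against 1.33%. At an unadjusted p under 0.05 there were 4 members (13.8%), against 9.31% of all genes. Cacna1d was at 162, 182 and 182 CPM in WT and at 136, 128 and 119 CPM in KO (log2 change -0.46, adjusted p = 0.169). Cacna2d3 was at 1985, 2273 and 2078 CPM in WT and at 2509.9, 2844 and 2423 CPM in KO (0.30, adjusted p = 0.25). Cacna1b was at 335, 327 and 306 CPM in WT and at 257, 249 and 264 CPM in KO (-0.32, adjusted p = 0.25), and Cacnb2 was at 52.7 ± 13.1 CPM in WT and 77.6 ± 9.62 CPM in KO (0.51, adjusted p = 0.423). The KO and WT animals did not overlap for any of these, and over all members tested they did not for 7 of 29 (24.1%), against 13.9% of all genes. This class had the fewest UMIs per animal.

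The progenitors held no call. In radial glia 35 members were tested, in excitatory intermediate progenitors 31 and in inhibitory progenitors 31. Over these 97 tests edgeR and DESeq2 each called 0, against 0% of all gene tests, and 0 were called with the block, against 0.0165%. An unadjusted p under 0.05 was seen in 3, against 3.27%. In radial glia Ryr2 was at 14.6 ± 1.39 CPM in WT and 12 ± 0.669 CPM in KO (log2 change -0.27, adjusted p = 1.00) and Itpr1 at 133 ± 3.52 and 145 ± 6.67 CPM (0.14, adjusted p = 1.00). In excitatory intermediate progenitors Cacna1c was at 72.8 ± 11.4 and 89.5 ± 16.8 CPM (0.31, adjusted p = 1.00).

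Whether the KO change differed between excitatory and inhibitory neurons was tested for each gene in both classes of the same animals. Of 37 members 0 passed, against 0.133% of all genes, and 6 (16.2%) had an unadjusted p under 0.05, against 6.26%. Cacna2d2 had the smallest p, with a log2 change of -0.46 in excitatory and -0.01 in inhibitory neurons (difference -0.45, SE 0.097, edgeR adjusted p = 0.134). Cacna2d3 followed, with 0.56 and 0.20 (difference 0.36, SE 0.095, edgeR adjusted p = 0.280), and then Trpc5, with -0.36 and 0.23 (difference -0.59, SE 0.158, edgeR adjusted p = 0.304). No member was thus shown to change differently in the 2 classes.

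Het animals were compared with the same WT animals, so the Het and KO comparisons share their controls. Over the 6 classes there were 200 member tests. Of these 0 were called by edgeR or DESeq2, against 0% of all gene tests, and 0 with the block, against 0.0146%, and 3 had an unadjusted p under 0.05, against 2.69%. Over the 7 subtypes there were 236 tests and again 0 calls by edgeR or DESeq2, against 0%, and 0 with the block, against 0.0123%, with 11 at an unadjusted p under 0.05, against 3.08%. The lowest p in excitatory neurons was that of Trpc1, whose log2 change was -0.26 in Het (SE 0.070, unadjusted p = 0.00238, edgeR adjusted p = 1.00) and -0.37 in KO. In deep-layer neurons the log2 changes in Het and KO were -0.25 and -0.50 for Trpc1, 0.28 and 0.70 for Cacna2d3, -0.46 and -0.86 for Cacna2d2, 0.22 and 0.33 for Itpr1, and 0.17 and 0.88 for Trpc7. For the other members called with the block they were 0.01 and 0.23 for Cacna1e, -0.09 and -0.60 for Trpc5, -0.05 and -0.23 for Cacna1b and -0.08 and -0.22 for Atp2b1. None of these Het changes passed. In run 1 the Het and WT animals of Trpc1, Cacna2d3, Cacna2d2 and Trpc7 overlapped in deep-layer neurons. In deep-layer neurons the excitatory intermediate progenitor list was higher in Het, at a summed 65.3 to 78.6 CPM against 60.5 to 64.3 CPM in WT. The oligodendrocyte progenitor list was higher too, at 2.25 to 3.65 CPM against 1.07 to 2.09 CPM. The other lists overlapped between Het and WT there. The part of these differences in the Het changes was not tested.

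Of 72 other genes of calcium handling, among them the AMPA receptor-associated Cacng genes and calcium-dependent kinases, 67 were tested in excitatory neurons. There edgeR called 0, against 0.719% of all genes, 9 had an unadjusted p under 0.05, against 12%, and 7 were called with the block, against 5.91%. Those lower included Cacng4 (log2 change -0.33), Camk2b (-0.28), the sodium leak channel Nalcn (-0.45) and Stac (-0.67), an adaptor of L-type channels, and those higher included Plcb1 (0.30), a phospholipase that makes IP3. The only call over the 6 classes was Camk2b, a calcium and calmodulin-dependent kinase, in Cajal-Retzius neurons. It was at 75.8, 63.2 and 70.6 CPM in WT, at 55.8, 49.7 and 50.3 CPM in Het and at 38, 36.1 and 37.5 CPM in KO (log2 change -0.91, SE 0.186, edgeR adjusted p = 0.0360). The 3 genotypes did not overlap. In Cajal-Retzius neurons 43 were tested, and 0.298% of all genes were called. In inhibitory neurons 62 were tested, 0 were called, against 0.0428% of all genes, and Cacng3 (0.39) was called with the block, against 0.813%. Between Het and WT, 0 were called in any class.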

How the data were processed

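Nuclei of 9 embryonic forebrains were barcoded and sequenced, with 2 libraries per animal titled run 1 and run 2. Genotypes were taken from library titles, since the genotype field reads WT for every run 1 library. Per the study's methods and the labels, the authors mapped reads to mm10 with ScaleRna, called nuclei with CellFinder and deposited estimated counts per gene and barcode (UMIs, of which 6.70% to 8.71% of the entries per library are not whole numbers). Seurat 4.3.0, DESeq2 1.38.3 and Scanpy 1.12.0 appear in the submitters' processing notes. Neither the release of the gene annotation nor whether counting used strand is stated there.

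From the 261143 deposited barcodes, 200811 passed the study's limits, namely UMIs from 800 to 6000, genes from 300 to 3000, mitochondrial UMIs up to 1% and log(genes)/log(UMIs) of 0.9 or more. The 5% of all deposited barcodes with the highest Scrublet score in each library were taken as likely doublets, and leaving these out of the nuclei that passed left 194178. Of the barcode sequences, 3429 were shared between libraries of different animals and 311 between libraries of the same animal only. Each was counted within its library. Nuclei were clustered with Scanpy 1.11.5 (3000 variable genes, 50 components, Leiden resolution 1), leaving out the 38 members, the other listed calcium genes, Myt1l and sex-linked genes. Clusters were named from marker lists, by a scoring rule set after the clusters were seen. Levels of members were compared between classes without a test.

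Counts were summed per animal over both runs within each class, subtype or cluster with at least 20 nuclei in every animal, rounded, filtered with filterByExpr and scaled by TMM. They were tested with edgeR 4.0.16 (quasi-likelihood, genotype as the only term, all 9 animals sharing an estimate of spread). The procedure was tested on simulated sums of excitatory neurons only, with changes set in genes at 20 CPM or more and no replicate effect. Genes at lower levels and other groups of nuclei were not covered. P-values were adjusted over all genes of a group. DESeq2 1.42.0, RLE scaling, no filter on low counts, the 6 animals compared alone, a replicate block, each run alone, no upper limits on UMIs and genes, Leiden resolution 2 and leaving out each animal were alternatives. Leiden resolution 2 was fitted for the classes only. The calls in subtypes, those of deep-layer neurons among them, were therefore not tested on other clusters. The difference of changes between excitatory and inhibitory neurons was tested on the per-animal sums of both classes.

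The labels do not say what a replicate number shares. The deviations of same-numbered KO and WT animals from their group means correlated at 0.114 to 0.250 in excitatory and 0.125 to 0.303 in inhibitory neurons, above 0.1 in every pair. The reported KO calls are from the fit without the block, and blocked values are printed beside them for that reason. For Het and WT the lowest was 0.0974.

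The members and lists were chosen with earlier results of these data known. Values in every animal are given for members called in a class or subtype, for the 4 uncalled members with the lowest KO p in excitatory and in inhibitory neurons, and for the 12 members with the largest ratio of highest to lowest class mean. Positions are from GENCODE vM21 (34 of 38 identifiers matched with their version) and promoters from RefSeq, both GRCm38, the build of mm10. Protein sequences were not used here, and some genes outside the 38 are not reported here.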

Additional observations from a re-analysis of the deposited data

Results flagged for a closer look

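Cacna2d2 lay on opposite sides of WT in 2 classes of KO animals, without passing the test in either (with the replicate block it was called in excitatory neurons, adjusted p = 0.0127). In Cajal-Retzius neurons, where its level is high, it was at 1201, 1189.9 and 1139 CPM in WT and at 1208, 1224 and 1327 CPM in KO, all above WT (log2 change 0.10, edgeR adjusted p = 0.810). In excitatory neurons, where its level is low, it was at 10.9, 8.36 and 8.09 CPM in WT and at 7.82, 5.18 and 6.57 CPM in KO, all below WT (log2 change -0.46, edgeR adjusted p = 0.235). The difference between these classes was not tested.

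The same was seen for Cacna1c in Het animals. In excitatory intermediate progenitors it was at 82.2, 60.1 and 76.1 CPM in WT and at 85.8, 91.4 and 98.7 CPM in Het, all above WT (log2 change 0.36, edgeR adjusted p = 1.00), and in excitatory neurons at 670.0, 714 and 687 CPM in WT and at 659, 659 and 664 CPM in Het, all below WT (log2 change -0.05, edgeR adjusted p = 1.00). The difference between these classes was not tested.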

How the results depend on the processing

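The number of members called between KO and WT in excitatory neurons was 2 in the reported fit. It was 10 with the replicate block, 8 with no filter on low counts, 4 by DESeq2, 4 at Leiden resolution 2, 0 with the 6 animals compared alone, 0 in run 1 alone and 0 to 2 when an animal was left out. In deep-layer neurons the reported 4 became 9 with the block, 6 with no filter on low counts, 5 by DESeq2, 3 with no upper limits on UMIs and genes, which ended the Cacna2d2 call, 0 in run 1 alone and 2 to 5 when an animal was left out. In inhibitory neurons the reported 0 became 3 with the block. In caudal ganglionic eminence interneurons the reported 0 became 1 with the block, 1 with no filter on low counts and 0 to 1 when an animal was left out, the 1 being without KO replicate 1. In indirect-pathway striatal neurons the reported 0 became 1 with no filter on low counts. Leiden resolution 2 was not fitted for any subtype. The causes were not tested. The share of all genes called is given above for the reported fit, the block and DESeq2 only. Counts under the other settings therefore cannot be read against a share. Among the 38 members in classes and subtypes, the block changed no other call between KO and WT, it was not fitted for single clusters, and between Het and WT it gave 0 member calls in every class and subtype. No test between KO and WT in any alternative reversed the direction of a member called in that comparison. Depth was lowest in Cajal-Retzius neurons, and the low members Cacna1i, Cacna2d4, Itpr2, Itpr3, Atp2a3 and Trpc6 were left untested in many groups.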
